A study of Mus musculus with 12 samples.

Results

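Of 29428 genes in the table, 9 protein-coding genes were found at a low to moderate level in STHdhQ7/Q7 cells and below 0.1 TPM on average in STHdhQ111/Q111 cells. They were *Sall1*, *Sox11*, *Nkx2-5*, *Khdrbs3*, *Tbx20*, *Dmrt3*, *Lhx1*, *Lrp2* and *Gal3st3*. They were selected on the measured values themselves. A gene was taken when its mean was at least 2 TPM (a level corrected for transcript length and sequencing depth) in both Q7 groups and below 0.1 TPM in both Q111 groups, and when its row was annotated as protein-coding. *Cyp1a1* and genes whose names start with Col, Pcdh, Cdh, Hox, Sema, Wnt or H2- were left out by the rule. Of the 17012 protein-coding rows, 9699 reached 2 TPM in both Q7 groups, and 10 of these were below 0.1 TPM in both Q111 groups. The tenth was *Cyp1a1*. Because the selection used the difference between the lines, that difference is described here without a test.

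The samples were 12 libraries of poly(A) RNA in 4 groups of 3: untreated STHdhQ7/Q7 cells (Q7-C), STHdhQ7/Q7 cells given 100 ng/mL murine interferon-gamma and 5 μg/mL lipopolysaccharide for 24 h (Q7-T), untreated STHdhQ111/Q111 cells (Q111-C) and STHdhQ111/Q111 cells given the same treatment (Q111-T). Both are immortalized mouse striatal cell lines of a Huntington's disease knock-in model, in which the huntingtin gene encodes a normal (Q7) or an expanded (Q111) glutamine tract on both alleles. All cells were grown at 33 °C and used within 20 passages. Each genotype was represented by a single cell line, so the huntingtin genotype and any other difference between these lines cannot be told apart. The study calls the replicates biological, and the sources used here do not say that they came from separate cultures, so the errors measure the spread between these samples.

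The set holds 6 DNA-binding regulators used in embryonic patterning, and the other 3 genes encode an endocytic receptor, an RNA-binding protein and a sulfotransferase. Factors of this kind are commonly switched on in restricted regions of the embryo and kept silent elsewhere, and one factor often serves several organs. *Sall1*, *Lhx1* and *Sox11* are known from kidney and nervous system development, *Nkx2-5* and *Tbx20* from the heart, and *Dmrt3* from spinal cord and forebrain neurons.

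The start of transcription was examined for the genes listed in the RefSeq promoter table (GRCm38.p6), which held 7 of the 9. *Khdrbs3* and *Gal3st3* were not matched. Each window covered 250 bases before to 50 bases after the start. The 4 windows printed here span the range of CpG content within the set, and CpG dinucleotides are in capitals, because CpG-rich starts are typical of broadly used and developmental promoters. The windows lie at chr11:84525485-84525784 for *Lhx1*, chr12:27342669-27342968 for *Sox11*, chr19:25610287-25610586 for *Dmrt3* and chr17:26841516-26841815 for *Nkx2-5*. The *Dmrt3* window is on the plus strand and the others are on the minus strand, and all are written 5′ to 3′.
Lhx1: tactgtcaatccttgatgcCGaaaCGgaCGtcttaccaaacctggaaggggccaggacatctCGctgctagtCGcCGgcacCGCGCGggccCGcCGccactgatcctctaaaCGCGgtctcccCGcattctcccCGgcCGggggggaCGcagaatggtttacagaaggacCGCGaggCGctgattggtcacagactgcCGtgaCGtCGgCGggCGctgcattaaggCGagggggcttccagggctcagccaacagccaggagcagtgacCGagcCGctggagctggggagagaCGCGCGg
Sox11: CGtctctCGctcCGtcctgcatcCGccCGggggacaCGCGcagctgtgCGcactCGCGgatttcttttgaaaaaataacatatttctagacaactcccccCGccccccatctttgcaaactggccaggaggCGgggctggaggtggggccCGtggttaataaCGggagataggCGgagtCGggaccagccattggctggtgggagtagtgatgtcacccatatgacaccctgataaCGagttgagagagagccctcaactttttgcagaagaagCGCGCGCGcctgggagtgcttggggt
Dmrt3: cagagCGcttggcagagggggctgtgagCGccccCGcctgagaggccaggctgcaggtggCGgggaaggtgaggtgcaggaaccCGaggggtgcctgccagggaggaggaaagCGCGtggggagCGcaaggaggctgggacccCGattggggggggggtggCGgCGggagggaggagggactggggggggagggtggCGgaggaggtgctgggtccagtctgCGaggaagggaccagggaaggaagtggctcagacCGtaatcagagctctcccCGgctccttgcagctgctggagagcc
Nkx2-5: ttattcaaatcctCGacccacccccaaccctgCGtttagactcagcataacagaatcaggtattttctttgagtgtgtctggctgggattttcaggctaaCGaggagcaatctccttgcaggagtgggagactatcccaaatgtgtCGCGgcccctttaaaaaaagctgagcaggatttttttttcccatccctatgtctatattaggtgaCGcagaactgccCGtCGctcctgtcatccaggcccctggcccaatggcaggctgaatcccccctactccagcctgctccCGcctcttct

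The *Lhx1* window held 31 CpG dinucleotides, with an observed-to-expected CpG ratio of 0.961, the highest of the 7. *Sox11* held 21 with a ratio of 0.817. *Dmrt3* held 15 with a ratio of 0.471 and *Nkx2-5* held 9 with a ratio of 0.466, and these were the only ones of the 7 below the limit of 0.6 that, with a GC content of at least 50%, was used here to call a window CpG-rich. The RefSeq starts were not always those of the table. The *Nkx2-5* window lay wholly inside the span that the table gives for the gene, the *Dmrt3* window lay inside it for 286 of 300 bases, and the *Sox11* window lay wholly outside it, with 0 bases in common. Thus 5 of 7 windows were CpG-rich (71.4%), against 76.2% of the windows of 7811 genes that reached 2 TPM in both Q7 groups and 58.002% of the windows of 13184 protein-coding genes in the table. The CpG-rich windows of *Tbx20*, *Sall1* and *Lrp2* had ratios of 0.745, 0.731 and 0.652.

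The 4 short motifs searched on both strands were the TATA box TATAAA, the core of the xenobiotic response element GCGTG, the cyclic AMP response element TGACGTCA and the AP-1 site with any base at its centre. None of the 7 windows held the TATA box, the cyclic AMP response element or the AP-1 site, which were present in 6.23%, 3.43% and 4.10% of the windows of the genes on in Q7. GCGTG was present in the windows of *Sox11*, *Tbx20* and *Dmrt3*, 3 of 7, and in 55.2% of the windows of the genes on in Q7. Absence of these letters from a 300-base window says nothing about the factors that bind them.

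*Sall1* (chr8:89027235-89044162, minus strand), a zinc-finger repressor needed for kidney formation and also a regulator of microglial identity, was the most abundant of the set. In Q7-C it measured 5.28, 10.5 and 12.6 TPM in replicates 1, 2 and 3, and in Q7-T 11.3, 3.36 and 10.1 TPM. In the 6 Q111 libraries it ranged from 0.020 to 0.120 TPM. The lowest Q7 library was well above every Q111 library, but the Q7 libraries differed among themselves by 3.75-fold. The ratio of mean TPM was 119 in untreated cells (9.45 ± 3.76 vs. 0.079 ± 0.053 TPM, SD, n = 3). In Q111-C 1 library was at or under 12 estimated counts, the detection limit used here, and with that library raised to the limit the ratio of counts scaled by library total was 109.9. In Q111-T no library exceeded the limit, so *Sall1* was at least 126-fold higher in Q7-T, from the same scaled counts with the limit applied to each library. The limit would be 3 read pairs at 4 counts per pair, which is an assumption, since the unit of the counts is not given in the sources used here, and with 1 count per read it would be 12 reads.

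*Sox11* (chr12:27334264-27342574, minus strand, a single-exon gene), a SoxC factor of immature neurons and other progenitors, measured 4.57, 4.25 and 5.25 TPM in Q7-C and 7.01, 5.06 and 5.86 TPM in Q7-T. It was among the steadiest of the set, with a 1.65-fold range over the Q7 libraries. Its 6 Q111 values ran from 0.014 to 0.106 TPM, and 4 of those libraries held more than 12 estimated counts. The ratio of mean TPM was 58.1 in untreated cells. In Q111-T the counts were 18, 4 and 8, and with the 2 libraries under the limit raised to it the ratio of scaled counts was 132.

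*Nkx2-5* (chr17:26838664-26845009, minus strand), the homeobox factor that marks cardiac progenitors, measured 9.06, 5.55 and 5.53 TPM in Q7-C and 3.62, 4.06 and 3.56 TPM in Q7-T. All 3 treated values were below all 3 untreated ones. No Q111 library exceeded 8 estimated counts, and 3 of the 6 had none. *Nkx2-5* was thus at least 38.2-fold higher in Q7-C than in Q111-C and at least 20.0-fold higher in Q7-T than in Q111-T.

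*Tbx20* (chr9:24718138-24774284, minus strand, in the table, with an end of 24774303 in the GENCODE M21 annotation used for transcript lengths) is a T-box factor of the developing heart that also acts in hindbrain motor neurons. It measured 2.00, 4.76 and 7.05 TPM in Q7-C and 7.20, 1.61 and 5.90 TPM in Q7-T. Its Q7 values covered a 4.48-fold range. The Q111 values lay between 0.016 and 0.096 TPM, and 5 of the 6 libraries were over 12 estimated counts. A trace of *Tbx20* was thus measured in Q111 libraries, and its source was not tested. The ratios of mean TPM were 67.2 untreated and 115 treated, and the untreated ratio of scaled counts was 67.9 with the 1 library under the limit raised to it.

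*Dmrt3* (chr19:25610301-25623921, plus strand), a DM-domain factor of spinal interneurons, measured 4.59, 6.29 and 6.65 TPM in Q7-C and 4.77, 1.89 and 3.90 TPM in Q7-T. It was not detected in either Q111 group, where the highest count was 6. It was at least 45.4-fold higher in untreated and at least 25.4-fold higher in treated Q7 cells.

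*Lhx1* (chr11:84518284-84525535, minus strand), a LIM-homeobox factor of the head organizer, kidney and several neuron classes, measured 2.99, 5.01 and 5.73 TPM in Q7-C and 4.12, 1.16 and 4.14 TPM in Q7-T. The value of 1.16 TPM was the lowest Q7 value in the set. Q111-C libraries held 0, 6 and 0 counts, which gave an untreated difference of at least 58.7-fold. Q111-T libraries held 10, 14 and 10 counts, and the treated ratio of mean TPM was 38.0, or 35.1 in scaled counts with the 2 libraries under the limit raised to it.

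Outside the transcription factors, *Lrp2* (chr2:69424340-69586065, minus strand) encodes megalin, a large endocytic receptor of the kidney tubule and neuroepithelium. It measured 1.54, 3.67 and 5.47 TPM in Q7-C and 3.31, 1.23 and 3.37 TPM in Q7-T. It was the gene with the most Q111 reads, and all 6 Q111 libraries exceeded 12 estimated counts, with a maximum of 82 in Q111-C replicate 2. Its long transcript gathers more reads at a given TPM, and the ratios of means were 52.1 and 38.4. The Q111-C values were 0.044, 0.139 and 0.022 TPM, so replicate 2 weighed most on the untreated ratio.

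*Khdrbs3* (chr15:68928420-69101211, plus strand), a STAR-family RNA-binding protein that regulates splicing, measured 3.97, 5.65 and 6.57 TPM in Q7-C and 4.92, 3.95 and 4.97 TPM in Q7-T. Its Q111 values were 0.142, 0.153 and 0 TPM in Q111-C and 0, 0.146 and 0.117 TPM in Q111-T. The value of 0.153 TPM was the highest Q111 value in the set. The ratios of mean TPM were 54.9 and 52.6, or 45.6 and 42.5 in scaled counts with the 1 library at 0 in each group raised to the limit.

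*Gal3st3* (chr19:5298331-5308738, plus strand), a Golgi enzyme that adds sulfate to galactose on glycans, was the least abundant and the steadiest, with 3.45, 3.07 and 3.44 TPM in Q7-C and 2.81, 2.33 and 2.51 TPM in Q7-T. In Q111 cells 1 library held 8 estimated counts and the other 5 held none. The difference was at least 26.0-fold in untreated and at least 18.8-fold in treated cells.

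**Figure D1:**
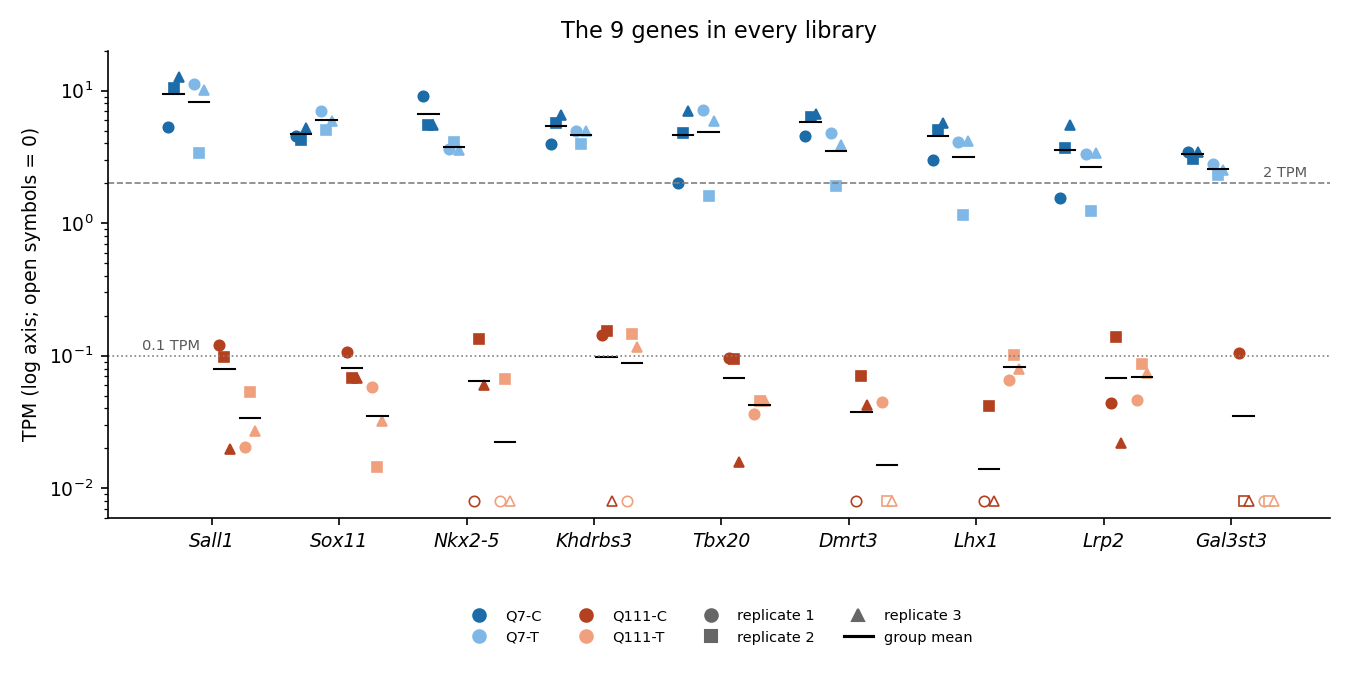
TPM on a log axis of each of the 9 genes in each of the 12 libraries, with 1 symbol shape for each replicate number, open symbols for 0 TPM and a black line at each group mean. The Q7 values run from 1.16 to 12.6 TPM and the Q111 values stay at or below 0.153 TPM.

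"Only in Q7" is therefore a statement about a TPM limit and not about absence. Of the 54 values of these genes in Q111 libraries, 15 were at 0 estimated counts and 22 were over 12. *Nkx2-5*, *Dmrt3* and *Gal3st3* were at or under 12 counts in every Q111 library, whereas *Sox11*, *Khdrbs3*, *Tbx20* and *Lrp2* were over the detection limit in at least 4 of 6. A small fraction of cells at a high level and all cells at a low level cannot be told apart in bulk RNA. No gene of the set met both limits in every single library, because a Q7 library fell below 2 TPM or a Q111 library reached 0.1 TPM in each case.

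The limits cut through a continuous range. The members closest to 2 TPM were *Gal3st3*, *Lrp2* and *Lhx1*, whose lower Q7 means were 2.55, 2.64 and 3.14 TPM. *Plpp7* at 1.96, *Tenm3* at 1.87 and *Hook1* at 1.75 TPM fell just short. The members closest to 0.1 TPM were *Khdrbs3*, *Lhx1* and *Sox11*, whose higher Q111 means were 0.098, 0.083 and 0.081 TPM. *Kcnf1* at 0.107, *Megf10* at 0.112 and *Pax6* at 0.117 TPM lay just outside.

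The set also sat low in the Q7 transcriptome. The median level of the 9699 genes on in Q7 was 16.1 TPM, and *Sall1*, at 8.84 TPM over the 6 Q7 libraries, was at percentile 30.5. The others lay between percentile 15.9 (*Sox11*) and 3.26 (*Gal3st3*). Of 7920 genes at 5 TPM or more in both Q7 groups, *Sall1* alone was below 0.1 TPM in both Q111 groups, and of 5934 at 10 TPM or more there were 0. The lowest Q111 level among those 5934 genes was 0.139 TPM, for *Bex1*. So low a level in Q111 was rare, since 9515 of the 9699 genes (98.1%) were at 2 TPM or more in at least 1 Q111 group.

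**Figure D2:**
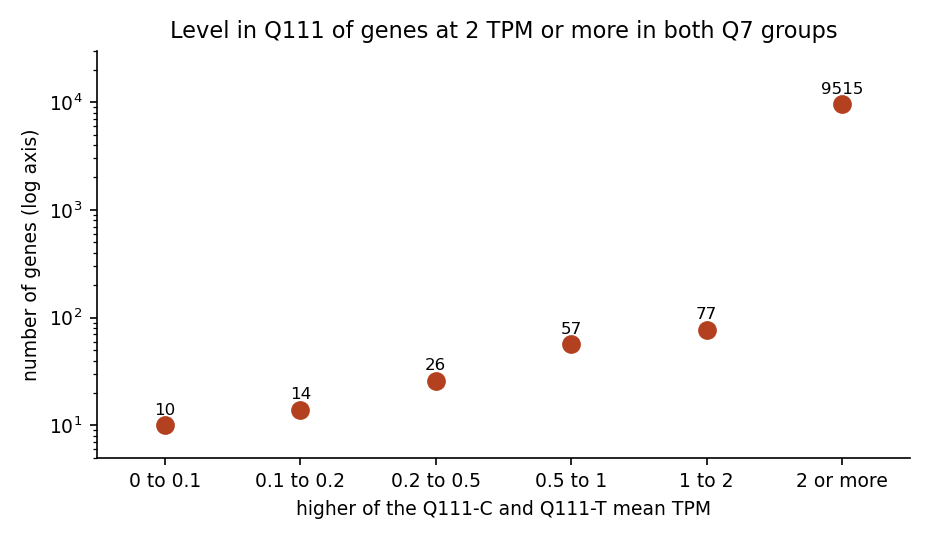
Number of genes (log axis) by the higher of their Q111-C and Q111-T mean TPM, among the 9699 protein-coding genes at 2 TPM or more in both Q7 groups. The lowest class holds 10 genes, the 9 described here and *Cyp1a1*, and the class at 2 TPM or more holds 9515.

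The 9 genes lay on 8 chromosomes. The only shared chromosome was 19, which carries *Dmrt3* and *Gal3st3*, and no member was within 500 kb of another. In the annotation of the table, kidney development was assigned to *Sall1*, *Sox11*, *Lhx1* and *Lrp2*, 4 of 9 genes against 0.838% of 9667 annotated genes on in Q7. Outflow tract septum morphogenesis, a step in heart formation, was assigned to *Nkx2-5*, *Tbx20* and *Lrp2*, against 0.176%. DNA-binding transcription factor activity was assigned to 5 of 9, against 3.79%. These shares describe a set chosen by expression and were not tested.

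By name, 57 genes of the Sox, Fox, Tbx, Pax, Gata, Lhx, Nkx and similar families of developmental transcription factors were on in Q7. Among them, 4 genes, *Nkx2-5*, *Lhx1*, *Tbx20* and *Sox11*, were members. A further 3 genes, *Pax2*, *Pax6* and *Sox6*, were below 0.5 TPM in both Q111 groups, which made 7 of 57 (12.3%), against 50 of all 9699 genes on in Q7 (0.516%). Members are part of both counts, and the difference was not tested. Among the 94 other genes of these families that were tested, 24 were lower and 21 higher in Q111-C vs. Q7-C (25.5% and 22.3%), and 20 were lower and 26 higher in Q111-T vs. Q7-T. Thus the factors of these families changed in both directions between the lines. Over all genes tested, 7.61% were called lower and 7.62% higher in Q111-C, and 11.2% lower and 13.3% higher in Q111-T. Here and below a call means a Benjamini-Hochberg adjusted p below 0.05 and at least a 2-fold change in the edgeR quasi-likelihood test.

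Relatives and co-factors of the members were then read, from a list written after the members were known. Among the SALL proteins, *Sall3* followed *Sall1*, with 2.33 TPM in Q7-C and 1.54 TPM in Q7-T against 0.031 and 0.026 TPM in Q111-C and Q111-T. *Sall2* did not pass in either comparison, at 10.6 TPM in Q111-C against 7.85 TPM. *Sall3* missed the set only through its Q7-T mean. *Sall4*, *Dmrt1*, *Dmrt2*, *Dmrta1* and *Ldb2*, also on the list, did not reach 0.5 TPM in 3 libraries and were not tested.

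In the SoxC group, which shares a DNA-binding domain and overlapping targets, *Sox4* was called higher in untreated Q111 cells (31.2 vs. 12.1 TPM), the opposite direction to *Sox11*. *Sox12* was called lower in Q111-T (10.4 vs. 18.3 TPM). *Sox11* was thus the only SoxC gene near the detection limit in Q111 cells. The log2 fold changes of *Sox4* (1.05) and *Sox12* (-1.25) were close to the 2-fold limit, and the call of *Sox4* was lost without Q111-C replicate 2 (0.97). That of *Sox12* was lost with limma at either pseudocount (-0.78 and -0.80) and without Q7-C replicate 1 and Q7-T replicate 2 together (-0.99).

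*Dmrta2*, a DM-domain factor of the cortical hem and dorsal forebrain, resembled *Dmrt3*, with 16.2 TPM in Q7-C against 0.283 TPM in Q111-C. Its log2 fold changes were -6.19 (SE 0.873) and -7.33 (SE 0.951). *Lhx2*, a LIM-homeobox factor of the forebrain, fell from 33.6 to 1.54 TPM without treatment and from 20.4 to 1.74 TPM with it. *Lhx9* was called lower in untreated cells alone, at 0.268 against 0.644 TPM, and that call was lost with limma on log2(TPM + 0.5), at -0.57. *Ldb1*, the adaptor that LIM-homeobox proteins bind, did not pass, at 77.3 TPM in Q111-C against 72.3 TPM.

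Heart factors differed between the lines in both directions. *Nkx2-5* and *Tbx20* were found in Q7 cells, whereas *Gata4* was at 0.617 and 0.363 TPM in Q7-C and Q7-T and at 7.34 and 8.28 TPM in Q111-C and Q111-T, with log2 fold changes of 3.23 (SE 0.257) and 4.04 (SE 0.268). *Gata6* was called higher in both Q111 groups, at 2.29 and 3.06 TPM against 0.135 and 0.046 TPM. *Nkx2-3*, a relative of *Nkx2-5* that acts in gut and spleen mesenchyme, was at 0.052 and 0.024 TPM in Q7 cells and at 2.82 and 1.17 TPM in Q111 cells, and was called higher in both. *Hand2* and *Mef2c* did not reach 0.5 TPM in 3 libraries and were not tested, with *Mef2c* at 0.506, 2.02 and 0.113 TPM in Q7-T. Among the T-box relatives of *Tbx20*, *Tbx2* was called higher in Q111-T (3.75 vs. 0.164 TPM) and *Tbx3* was called lower in Q111-C (1.07 vs. 2.76 TPM), each in that comparison alone. The *Tbx3* call was lost with limma at either pseudocount (-1.06 and -1.31, adjusted p = 0.0818 and 0.0698). *Tbx18* was not called in either, at 7.68 TPM in Q111-C against 4.80 TPM.

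Kidney factors were divided in the same manner. *Pax2*, which acts with *Lhx1* and *Sall1* in the nephric lineage, was called lower in Q111 cells (13.99 and 8.26 TPM against 0.379 and 0.147 TPM). *Six2* and *Osr1*, factors of nephron progenitors and intermediate mesoderm, were called higher in both Q111 groups, with *Osr1* at 26.1 TPM in Q111-C against 4.61 TPM in Q7-C and *Six2* at 5.10 against 0.316 TPM. *Pax8* and *Wt1* were too low to be tested.

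**Figure D3:**
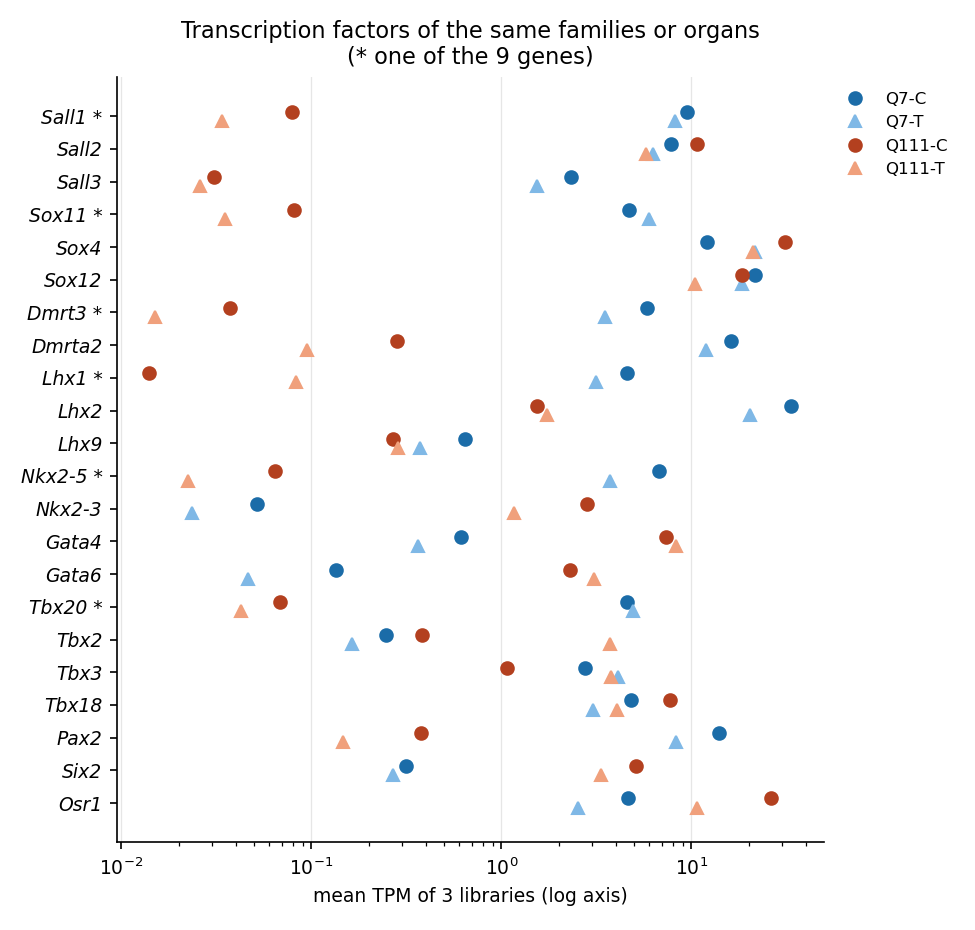
Mean TPM (log axis, n = 3) of transcription factors of the same families or organs, with circles for untreated and triangles for treated cells, blue for Q7 and red for Q111, and an asterisk for each of the 9 genes shown. *Sall3*, *Dmrta2*, *Lhx2* and *Pax2* lie with the Q7 line, while *Nkx2-3*, *Gata4*, *Gata6*, *Six2* and *Osr1* lie with the Q111 line.

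For the genes that are not transcription factors, most of the partners examined were measured in both lines. The megalin co-receptor *Cubn*, the chaperone *Lrpap1* and the endocytic adaptor *Dab2* were not called in either comparison. *Cubn* was low throughout, with means of 0.598, 0.511, 0.783 and 0.675 TPM in Q7-C, Q7-T, Q111-C and Q111-T. *Lrpap1* measured 38.6 TPM in Q111-C against 29.8 TPM, and *Dab2* measured 30.4 against 41.6 TPM. *Khdrbs1*, the relative of *Khdrbs3* known as SAM68, measured 71.6 TPM in Q111-C against 52.2 TPM and was not called. Among the sulfotransferases, *Gal3st1* was not called, with 2.27 against 2.98 TPM, and *Gal3st4* was called lower in Q111-T, at 0.017 against 2.08 TPM. The Q7-T values of *Gal3st4* were 3.28, 0 and 2.96 TPM in replicates 1, 2 and 3. In Q111-C it was not called (0.890 vs. 2.63 TPM). *Gal3st2* was called higher in Q111-T, at 1.01 TPM, and was at 0 TPM in all 6 Q7 libraries.

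The labels describe the cells as striatal neuronal. Of 17 neuronal markers 13 were in the table, and 4 reached 1 TPM in Q7-C (*Map2*, *Stmn2*, *Syn1* and *Tubb3*), while *Snap25* and *Syt1* were at 0 TPM in all Q7 libraries. The summed level of the neuronal markers was 98.4 to 108.9 TPM in Q7-C, 135 to 172 TPM in Q7-T, 17.3 to 20.96 TPM in Q111-C and 34.1 to 38.4 TPM in Q111-T, with *Stmn2* at 73.5 TPM in Q7-C against 2.00 TPM. In Q111-C 5 reached 1 TPM, and of these the striatal genes *Penk* (4.93 vs. 0.143 TPM, called higher) and *Ppp1r1b* (1.12 vs. 0.303 TPM, not called) had higher means in Q111-C. Of 13 neural progenitor markers 11 were in the table, and their summed level was 88.8 to 141 TPM in Q7-C, 40.4 to 115 TPM in Q7-T, 24.2 to 27.6 TPM in Q111-C and 20.5 to 24.7 TPM in Q111-T. Of 8 tested progenitor markers, 4 were called lower in Q111-C and 0 higher. They were *Msi1* (0.748 vs. 1.48 TPM), *Sox2* (4.19 vs. 42.4 TPM), *Nes* (7.31 vs. 54.6 TPM) and *Pax6* (0.117 vs. 6.97 TPM). The other 4 tested progenitor markers were not called, and their log2 fold changes in Q111-C vs. Q7-C were 2.20 for *Dlx5*, 1.55 for *Fabp7*, -0.12 for *Dlx1* and -0.80 for *Dlx2*. In Q111-T vs. Q7-T 3 of the 8 were called lower and 0 higher. The part of these markers in the line difference of the 9 genes was not tested. Of 15 mesenchymal or meningeal markers 13 reached 1 TPM in Q7-C and 12 in Q111-C. Their summed level was 2031.6 to 2292.8 TPM in Q7-C and 1664.5 to 1899.6 TPM in Q7-T. In Q111-C it was 1334.9 to 1440.5 TPM and in Q111-T 447.9 to 538.8 TPM, the highest sums of the marker lists. *Acta2* (43.7 vs. 1670 TPM in Q111-C vs. Q7-C) and *Tagln* (2.37 vs. 80.7 TPM) were called lower. *Col1a2* (250 vs. 14.6 TPM) was among the 7 called higher. Of 10 microglial or macrophage markers 8 were in the table, with a summed level of 17.8 to 20.6 TPM in Q7-C, 11.9 to 18.5 TPM in Q7-T, 31.9 to 37.0 TPM in Q111-C and 46.0 to 62.5 TPM in Q111-T. Most of that sum came from *Cd68* (7.09, 11.7, 15.2 and 48.8 TPM in Q7-C, Q7-T, Q111-C and Q111-T) and *Tmem119* (12.3, 3.14, 18.7 and 5.13 TPM). The others, *Ptprc*, *Adgre1* and *C1qa* among them, were below 1 TPM in every group mean. *Cd68* was called higher in Q111-T vs. Q7-T, with a log2 fold change of 1.55, and *Tmem119* was not called between the lines. In the other marker lists, calls in Q111-C vs. Q7-C were 3 lower and 1 higher of 6 tested neuronal genes, 0 of 2 microglial genes, 1 lower and 2 higher of 5 astrocyte genes, 0 lower and 1 higher of 3 oligodendrocyte genes, 1 lower and 0 higher of 4 vascular genes, 2 lower and 7 higher of 13 mesenchymal genes, and 2 lower and 0 higher of 6 epithelial genes. In Q111-T vs. Q7-T they were 3 lower and 1 higher neuronal, 0 lower and 4 higher astrocyte, 0 lower and 1 higher oligodendrocyte, 1 lower and 0 higher vascular, 2 lower and 6 higher mesenchymal, and 3 lower and 0 higher epithelial genes.

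No member belonged to the lists of signalling and imprinted genes read alongside. *Cyp1a1*, which met the same TPM limits and was left out by name, is on the aryl hydrocarbon receptor list. It is counted among the lower genes of that list in both comparisons of the lines. Of 16 tested retinoid genes, which make, bind or respond to the patterning signal retinoic acid, 5 were lower and 1 was higher in Q111-C, among them the retinoic acid binding protein gene *Crabp1* (2.38 vs. 174 TPM). Of 10 tested genes of the aryl hydrocarbon receptor pathway 3 were lower and 2 higher, of 17 imprinted genes 4 were lower and 4 higher, and of 3 germline genes 0 were lower and 1 was higher, where 7.61% and 7.62% of all genes tested were lower and higher. In Q111-T vs. Q7-T the retinoid genes were divided evenly, with 2 lower and 2 higher, and the calls were 4 lower and 3 higher for the aryl hydrocarbon receptor pathway, 4 lower and 4 higher for imprinted genes, and 0 lower and 1 higher for germline genes, where 11.2% of all genes tested were lower and 13.3% higher.

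Genes beside the members were examined to see whether the difference reached beyond the members, using the nearest protein-coding gene on each side within 500 kb. There were 13 such neighbours, and 11 were tested. In Q111-C vs. Q7-C 2 were lower (*Bnip1* and *Cst6*) and 1 was higher (*Dhrs9*), with a median log2 fold change of -0.51 against -0.02 over all genes tested. In Q111-T vs. Q7-T 3 were lower (*Bnip1*, *Aatf* and *Cst6*) and 2 were higher (*Kifc5b* and *Dhrs9*), with a median of -0.37 against -0.03. Over all genes tested the calls were 7.61% and 11.2% lower, and no test was made of these shares over 11 genes.

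*Cst6*, a cysteine protease inhibitor gene 36.0 kb beyond *Gal3st3*, was the neighbour nearest to the pattern of the members. It measured 7.77 and 5.67 TPM in Q7-C and Q7-T and 0.208 and 0.110 TPM in Q111-C and Q111-T, with log2 fold changes of -5.59 (SE 0.852) and -6.26 (SE 0.893). Its Q7-T values were 3.26, 10.4 and 3.35 TPM in replicates 1, 2 and 3. Without single libraries the log2 fold changes ran from -6.68 to -5.17 untreated and from -6.64 to -5.02 treated, and both calls held. On the other side of *Gal3st3*, at 2.9 kb, the splicing factor gene *Sf3b2* measured 172 TPM in Q111-C against 154 TPM and was not called. *Dhrs9*, 19.8 kb from *Lrp2*, moved the other way, at 3.81 TPM in Q111-C against 0.914 TPM. *Bnip1*, 46.1 kb from *Nkx2-5*, measured 4.70 TPM in Q111-C against 7.84 TPM, with a log2 fold change of -1.11 and an adjusted p of 0.040 by edgeR. That call was lost without Q7-C replicate 1 (-0.73) and also without Q7-C replicate 2 or any one Q111-C library (-1.21 to -1.05, adjusted p up to 0.127). Limma at either pseudocount also took the log2 fold change of *Bnip1* under the 2-fold limit in both comparisons (-0.71 to -0.57), and the compared groups alone left *Bnip1* and *Kifc5b* uncalled in the treated one (adjusted p = 0.0609 and 0.0562). In the treated comparison the calls of *Bnip1* and *Kifc5b* were lost without Q7-T replicate 2 (-0.63 and 0.75) or without Q111-T replicate 1 (-1.07 and 0.97), and that of *Bnip1* also without Q111-T replicate 3 (-1.10).

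The same TPM limits were passed by 5 rows that are not protein-coding: *Dmrta2os*, *Lhx1os*, *4930461G14Rik*, *Gm37800* and *Gm48609*. *Lhx1os*, a long non-coding RNA on the opposite strand whose annotated start is 125 bases from that of *Lhx1*, measured 4.26, 2.65 and 2.50 TPM in Q7-C and 1.96, 2.88 and 1.70 TPM in Q7-T, and held 0 estimated counts in all 6 Q111 libraries. The *Lhx1* window printed above contains the annotated start of *Lhx1os* as well, and the library kit keeps the strand, but the strand setting used in counting is not given in the sources used here. *Dmrta2os*, a non-coding gene named for *Dmrta2*, measured 9.51, 8.45 and 6.40 TPM in Q7-C and 4.39, 2.04 and 5.78 TPM in Q7-T, with at most 6 estimated counts in a Q111 library.

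The response to interferon-gamma and lipopolysaccharide in Q7 cells is given for the 9 genes as a description, because the rule asked for 2 TPM in both Q7-C and Q7-T and so left out genes with a mean below that level after treatment. *Hook1*, not called in this comparison (adjusted p = 0.482 by edgeR), was outside the set at 4.26 TPM in Q7-C and 1.75 TPM in Q7-T. None of the 9 was called in Q7-T vs. Q7-C, where 2.93% of 16127 genes were called higher and 1.11% lower by edgeR, and 0 of 9 had an unadjusted p below 0.05. DESeq2 also called 0, with 2 genes (*Dmrt3* and *Sox11*) at an unadjusted p below 0.05. The largest rise was for *Sox11*, with a log2 fold change of 0.53 (SE 0.291, adjusted p = 0.441). The largest decreases were for *Nkx2-5*, at -0.66 (SE 0.709, adjusted p = 0.747), and *Dmrt3*, at -0.60 (SE 0.569, adjusted p = 0.711). The other 6 lay between -0.43 (*Lhx1*) and 0.22 (*Tbx20*). The median was -0.19, against a median of 0.00 over all genes tested. The errors depended on the setting. The SE of *Dmrt3* was 0.569, and 0.331 with counts divided by 4 or 0.248 with the compared groups alone. For *Khdrbs3* the same values were 0.807, 0.459 and 0.222, and for *Nkx2-5* 0.709, 0.453 and 0.434. No gene of the set was called in either setting. Since both groups entered the selection, the count of 0 does not show that genes of this kind stayed constant.

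**Figure D4:**
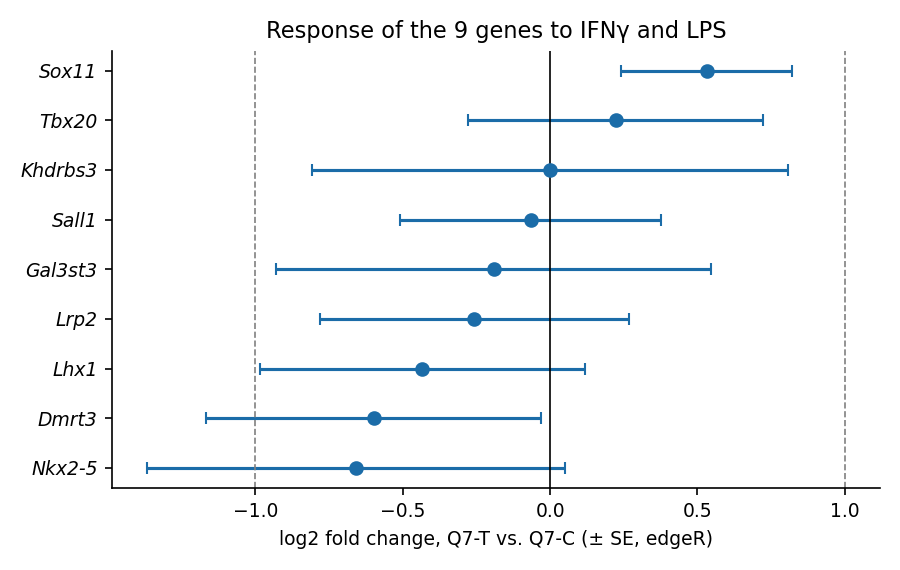
Log2 fold change of each gene in Q7-T vs. Q7-C, with bars for the standard error of the edgeR fit and dashed lines at a 2-fold change. *Nkx2-5* has the lowest estimate, -0.66, and *Sox11* the highest, 0.53.

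In TPM, the Q7-C and Q7-T libraries of *Nkx2-5* and *Gal3st3* did not overlap, and both were lower with treatment. Without overlap, the exact two-sided permutation test over 3 against 3 libraries always gives p = 0.1, the smallest that this design allows. It therefore adds nothing to that observation. Over all genes tested 8.9% were lower without overlap and 5.55% were higher. The *Nkx2-5* estimate moved with single libraries, and its log2 fold change was -0.16 without Q7-C replicate 1 and -1.01 without Q7-T replicate 2. *Gbp2*, an interferon-induced GTPase used as a check of the treatment, rose in all treated libraries, from 7.31 to 14.6 TPM in Q7-C to 797 to 1381 TPM in Q7-T.

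Of the 6 Q7 libraries, 2 stood apart. Q7-T replicate 2 was the lowest of its group for 8 of the 9 genes and Q7-C replicate 1 for 6 of the 9. Deviations of each library from its group mean were also correlated over all genes tested. Those of Q111-T replicate 2 correlated at 0.473 with Q7-C replicate 1 and at 0.328 with Q7-T replicate 2. Those of Q111-C replicate 1 correlated at 0.158 and 0.348. The ratios below were computed for the Q7 libraries alone. Over the 9699 genes on in Q7, the median ratio of Q7-C replicate 1 to the mean of the other two libraries was 0.720, and that of Q7-T replicate 2 was 0.575. These ratios fell with transcript length, from 1.10 in the class with the shortest transcripts, of 4 equal classes, to 0.509 in the class with the longest for Q7-C replicate 1, and from 1.03 to 0.403 for Q7-T replicate 2. They rose with the GC content of the transcript, from 0.564 in the class of lowest GC to 0.924 in the class of highest GC for Q7-C replicate 1 and from 0.452 to 0.761 for Q7-T replicate 2.

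The members did not all follow this order. *Tbx20* (longest transcript 9091 bases) had ratios of 0.339 and 0.245, *Lrp2* (15460 bases) had 0.336 and 0.368, and *Sall1* (5265 bases) had 0.457 and 0.314, while *Lhx1*, at 3846 bases, had 0.557 and 0.281. *Nkx2-5*, with the shortest transcript of 1525 bases, was the only one above 1 in both libraries, at 1.64 and 1.13. *Sox11*, at 8311 bases in a single exon, had ratios of 0.962 and 0.787. The GC content also differed between the members, from 41.4% in *Khdrbs3* and 42.3% in *Tbx20* to 67.1% in *Nkx2-5*, and was 46.5% in *Sox11*. The parts of transcript length and GC content in the spread of these genes were not tested. Without both libraries the rule kept all 9 genes and added *Hook1*, *Sall3* and *Tenm3*.

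**Figure D5:**
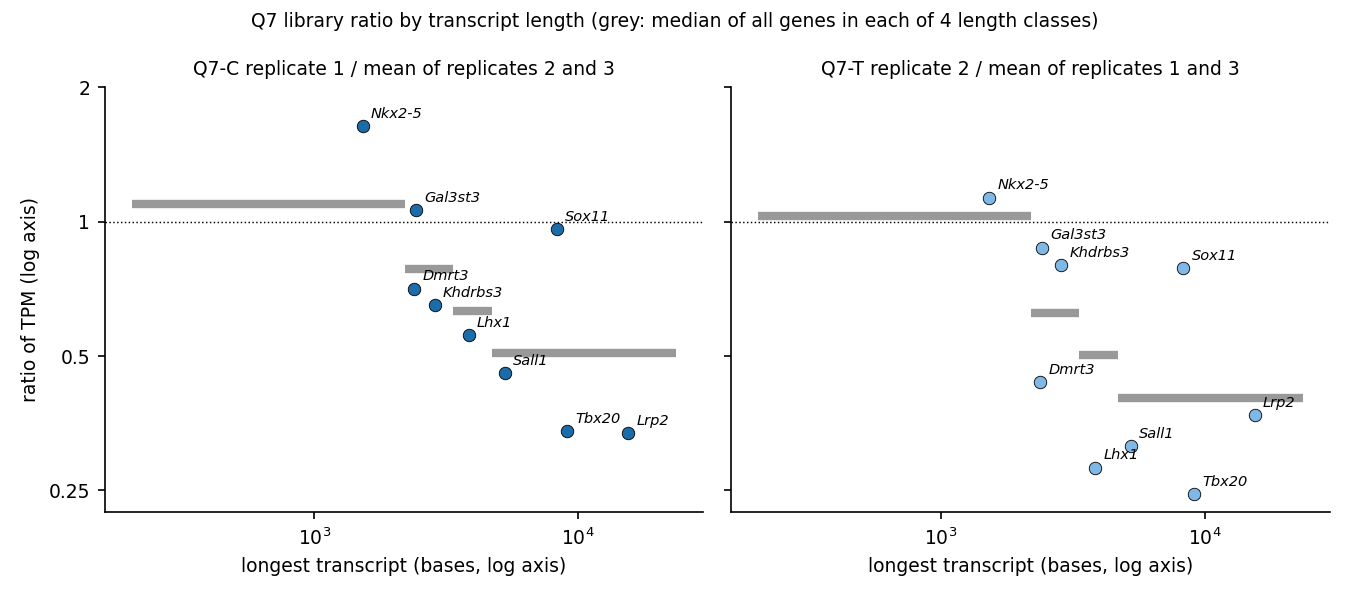
TPM ratio of Q7-C replicate 1 (left) and of Q7-T replicate 2 (right) to the mean of the other 2 libraries of the group, against the longest annotated transcript, both on log axes. Points are the 9 genes and grey bars are the medians of all 9699 genes in each of 4 length classes, which decrease from 1.10 to 0.509 and from 1.03 to 0.403.

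*Cyp1a1*, left out by the rule, shared the pattern. It measured 2.94, 3.94 and 3.93 TPM in Q7-C and 4.67, 1.10 and 3.33 TPM in Q7-T, and held 0 estimated counts in all Q111 libraries. The reverse selection, with the limits exchanged between the lines, gave 26 genes on in Q111 and below 0.1 TPM in Q7.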

How the data were processed

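Poly(A) RNA of 12 libraries was sequenced as stranded paired-end reads. The authors trimmed reads with Cutadapt, aligned them to mouse GRCm38 with HISAT2 and quantified genes with StringTie. They deposited, for each gene, TPM values and estimated counts, both used here as deposited. The estimated counts were whole numbers whose unit is not given in the sources used here. In every library multiples of 4 were more frequent than the even numbers beside them (1.28 to 1.72 times), and 12 counts, 3 read pairs if each pair gave 4 counts, were taken as the detection limit. Totals were 57505990 to 96417834 estimated counts per library. Rows with protein_coding among their transcript types were read as protein-coding.

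Genes at 0.5 TPM or more in at least 3 libraries (16127) were fitted with edgeR 4.0.16 in R 4.3.3 (TMM, quasi-likelihood, 1 mean per group). All 9 members passed this filter. The pipeline was tested on simulated counts with a fixed dispersion. The simulation had no differences between libraries by transcript length or GC content, so it does not cover those seen here. DESeq2 1.42.0, limma 3.58.1 on log2(TPM + 0.5) and log2(TPM + 0.1), other filters and scalings, and leaving out each library were the alternatives. Members were named in full, since 20 or fewer were found, with the 3 genes next to each limit and the neighbours called. The members and gene lists were chosen with earlier results of these data known, and the list of relatives was written after the members were known. Fixed lists of imprinted, germline, aryl hydrocarbon receptor and retinoid genes and of cell type markers held 0 members.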

Additional observations from a re-analysis of the deposited data

How the results depend on the processing

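None of the 9 genes was called in Q7-T vs. Q7-C under any of the 16 alternatives, in which the smallest adjusted p was 0.0914 (*Nkx2-5*, limma on log2(TPM + 0.5)) and at most 2 genes had an unadjusted p below 0.05. Since the rule used both Q7 means, this count is no sign of stability. The sign of the estimate was not settled for 5 of them. Leaving out single libraries gave -0.25 to 0.19 for *Sall1*, -0.13 to 0.086 for *Khdrbs3*, -0.057 to 0.56 for *Tbx20*, -0.54 to 0.089 for *Lrp2* and -0.38 to 0.017 for *Gal3st3*, and *Khdrbs3* also turned to 0.0048 with DESeq2, 0.0042 with RLE size factors and 0.0074 with the compared groups alone. Over all genes, 179 were lower in Q7-T, 276 with DESeq2, 78 with the compared groups alone and 118 to 191 without single libraries.

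The number of genes that met the rule followed its limits. It was 25 at 1 TPM and 1 at 5 TPM in Q7, 2 below 0.05 TPM and 22 below 0.2 TPM in Q111, 0 when every library had to pass, and 5 when rows with mixed transcript types were left out. Without single libraries it was 7 to 13. *Khdrbs3* and *Sall1* were lost without Q111-C replicate 3 and *Khdrbs3* without Q111-T replicate 1, while *H2bu2*, *Kcnf1*, *Megf10* and *Pax6* were gained without Q111-C replicate 2. Neighbours lower in Q111-C numbered 1 in place of 2 with limma at either pseudocount, and 1 to 2 without single libraries. Leaving out Q7-C replicate 1 and Q7-T replicate 2 together, an alternative added after seeing the data, gave 1 such neighbour and 12 genes meeting the rule.

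The deviations of same-numbered Q7-C and Q7-T libraries from their group means correlated at -0.58, -0.37 and 0.45 for replicates 1, 2 and 3. Those of Q7-C replicate 1 and Q7-T replicate 2, the libraries that stood apart, correlated at 0.64. These correlations therefore cannot decide whether the replicate numbers pair the samples, and the main fit used no pairing. With the number as a block, 426 genes were higher and 144 lower in Q7-T in place of 472 and 179, 0 of the 9 genes were called, and 1 neighbour was lower in Q111-C in place of 2. The causes of these shifts were not tested. For low genes the detection limit of 12 counts sets the lower bounds on the line differences.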
